A study of Mus musculus with 116 samples.

Results

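The genes of the p53, Rb and G1 checkpoint followed here, by name and in every library, were Trp53, Mdm2, Ccng1, Cdkn1a, Cdkn1b, Cdkn2a, Rb1, Ccnd1, Ccnd2 and Cdk4. They are 10 of the 40202 gene symbols in the count files, and all 10 were found there. The libraries came from 2 untreated mouse lines, C10, an alveolar type II epithelial line, and SVEC, an endothelial line, grown by standard culture. C10 is known as a spontaneously immortal line and SVEC as a line transformed with SV40, so the question was how the host checkpoint genes compare between them. All libraries were made by nanoSPLITS, which splits a nanodroplet of lysed cells so that RNA and protein can be read from the same cells, and only the RNA was used here. The libraries fall into 5 groups. An input series of C10 has 8 libraries with 1 cell as input, 6 with 3 cells and 6 with 10 cells, and a separate single-cell set has 48 libraries of each line. Nothing in the labels says that libraries of a line came from separate cultures, so the p-values measure the spread between libraries, which may be technical. No sequencing batch was given, so line and batch cannot be told apart.

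p53, encoded by Trp53, is a transcription factor that responds to DNA damage and other stress. Among its targets are Cdkn1a, which encodes the CDK inhibitor p21, Mdm2, which encodes the ubiquitin ligase that degrades p53, and Ccng1, which encodes cyclin G1. The D cyclins bind Cdk4 or Cdk6 and phosphorylate the Rb protein, which otherwise holds E2F factors and keeps S phase genes off. Cdkn2a encodes 2 unrelated proteins from separate first exons: p16Ink4a, which inhibits Cdk4 and Cdk6, and p19Arf, which inhibits Mdm2. The SV40 large T antigen binds both p53 and Rb family proteins.

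Depth differed between the lines. The median library held 1801480 counts over genes in the C10 single cells (range 56 to 5911755) and 434945 in the SVEC single cells (5122 to 2831907), with 6083 and 4404 genes detected. The 2 C10 libraries under 1000 counts were left out, which left 46. Levels are given as CPM, counts scaled to a library total of 1000000. A count of 3 corresponded to 1.67 CPM in the median C10 library and to 6.90 CPM in the median SVEC library. At that depth none of 12 endothelial markers had a count in 50% of the SVEC libraries, and Kdr, Tie1, Vwf, Esam, Cldn5 and Emcn had none in any. Sftpa1, Sftpb, Sftpc and Sftpd, which encode surfactant proteins, were likewise at 0 in all single cells of both lines, and Cdh1 was the only 1 of 12 alveolar and epithelial markers with a count in 50% of the C10 libraries. Defining markers of the labelled tissues were thus absent or rare in both lines. Of 6 mesenchymal markers, Col1a1, Col3a1 and Vim each had a count in 50% or more of the libraries in both lines. Col1a2, Pdgfra and Pdgfrb did not reach 50% in either line.

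RefSeq promoter windows of assembly GRCm38.p6 matched 7 of the 10 genes, with 9 windows. Rb1, Ccnd1 and Ccnd2 had no window and were not searched. The 250 bases before each start were searched and are shown 5′ to 3′ on the gene's strand. The build behind the counts is not given in the sources used here. A search was made for the 20-base p53 element, a pair of 10-base half-sites with no spacer and at most 1 base off. It found the element in 25 of 32851 windows (0.0761%). The windows of Ccng1 and of the upstream start of Cdkn1a were among them, each with 1 base off, starting 195 and 51 bases before the start. They are shown because these genes are 2 of the 3 p53 targets followed here, at chr11:40755287-40755536 on the minus strand and chr17:29090729-29090978 on the plus strand. The match is in capitals.

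Ccng1: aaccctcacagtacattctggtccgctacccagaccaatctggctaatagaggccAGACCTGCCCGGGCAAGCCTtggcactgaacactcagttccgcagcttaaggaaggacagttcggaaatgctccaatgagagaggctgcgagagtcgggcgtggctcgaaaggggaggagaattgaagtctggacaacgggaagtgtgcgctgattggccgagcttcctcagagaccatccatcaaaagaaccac

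Cdkn1a: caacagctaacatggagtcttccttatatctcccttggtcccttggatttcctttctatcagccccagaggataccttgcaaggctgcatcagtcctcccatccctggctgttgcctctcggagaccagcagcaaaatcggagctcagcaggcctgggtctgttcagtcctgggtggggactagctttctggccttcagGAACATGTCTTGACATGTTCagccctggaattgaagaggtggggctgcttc

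The 8-base E2F motif, spelled TTTCGCGC, TTTGGCGC, TTTCCCGC or TTTGCCGC on either strand, was present in 611 windows (1.86%). Of the 7 checkpoint genes with a window it was found only at the upstream start of Cdkn2a, 99 bases before the start. It is shown in capitals in the window chr4:89294620-89294869 on the minus strand. The downstream start, at chr4:89282193-89282442 on the same strand, is shown beside it because counts per gene cannot tell the 2 transcripts apart.

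Cdkn2a upstream start: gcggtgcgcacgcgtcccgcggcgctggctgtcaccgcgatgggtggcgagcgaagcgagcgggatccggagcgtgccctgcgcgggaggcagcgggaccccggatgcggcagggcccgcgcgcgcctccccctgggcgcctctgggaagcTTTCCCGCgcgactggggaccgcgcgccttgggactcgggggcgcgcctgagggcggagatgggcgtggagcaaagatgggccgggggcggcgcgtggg

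Cdkn2a downstream start: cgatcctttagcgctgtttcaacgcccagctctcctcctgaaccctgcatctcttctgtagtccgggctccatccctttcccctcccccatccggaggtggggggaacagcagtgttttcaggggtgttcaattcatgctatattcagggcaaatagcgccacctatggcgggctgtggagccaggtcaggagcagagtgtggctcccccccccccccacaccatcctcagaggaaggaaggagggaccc

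These matches describe the letters of the windows, and binding was not measured.

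Between the single-cell libraries, 3 of the checkpoint genes were higher in C10: Ccnd1, Ccng1 and Ccnd2. Cdkn2a was higher in SVEC. The edgeR quasi-likelihood test called these 4 of the 9 genes tested at an adjusted p under 0.05, 3 higher in C10 and 1 higher in SVEC. Over all 9303 genes tested it called 18.9%, with 14.4% higher in C10 and 4.48% higher in SVEC. The 10th gene, Rb1, had a count in too few libraries to pass the filter, a count in at least 25% of either line's libraries. Ccnd1 passed it only through C10 (36 of 46 libraries and 6 of 48 of SVEC). Cdkn2a passed it only through SVEC (20 of 48 libraries and 1 of 46 of C10). The median log2 fold change of all genes was 0.35 with TMM scaling and near 0 (-0.0023) with library totals. Of the calls over all genes, 76.2% were higher in C10 with TMM scaling and 57.9% with library totals. The same 4 checkpoint genes were called under both scalings, and fold changes are given on the TMM scale. On simulated counts of C10 against SVEC, edgeR made more false calls than its nominal rate, which limits each edgeR call given here.

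**Figure D1:**
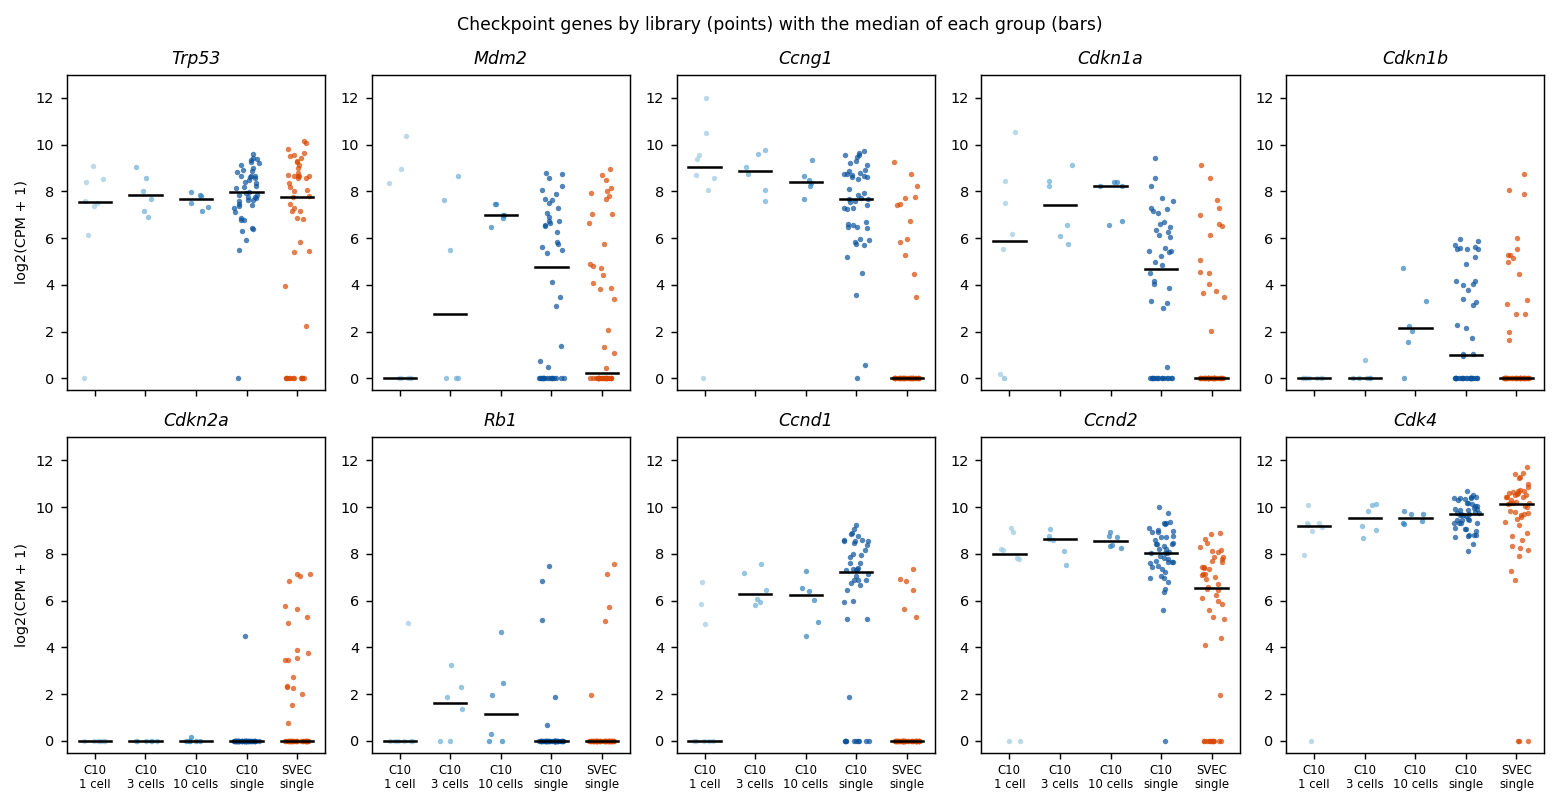
Level of each checkpoint gene in every library kept, as log2(CPM + 1) on the vertical axis, for the 5 library groups on the horizontal axis; points are libraries and bars are group medians. The Cdkn2a points of C10 lie at or near 0 except for 1 single-cell library at 21.3 CPM, and the Cdk4 points of both lines overlap.

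Of the D cyclins, Ccnd1, which encodes cyclin D1, had the larger difference. It had a count in 36 of 46 C10 libraries, with 0 CPM in the lowest, 149 in the median and 611 in the highest. In SVEC it had a count in 6 of 48 libraries, the median was 0 and the highest was 165 CPM. A single SVEC library lay above the C10 median, and 19 C10 libraries lay above the highest SVEC library. The C10 mean was 183 ± 169 CPM (SD, n = 46) and the SVEC mean 12.0 ± 35.6 CPM (SD, n = 48). The log2 fold change was 4.01 (SE 0.74, edgeR adjusted p = 1.05e-05), or 3.67 above the median of all genes.

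Ccnd2, which encodes cyclin D2, was detected in both lines. Its CPM ran from 0 through a median of 265 to 1031 in C10 (45 of 46 libraries with a count) and from 0 through 92.0 to 479 in SVEC (36 of 48). The groups overlapped, with 8 SVEC libraries above the C10 median and 11 C10 libraries above the highest SVEC library. The log2 fold change was 1.73 (SE 0.40, edgeR adjusted p = 0.000518), 1.38 above the median of all genes.

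Within a library, Ccnd1 was never seen without Ccnd2 among those with at least 100000 counts. In C10, 35 of 45 libraries had both, 9 had Ccnd2 alone and 1 had neither. As only 1 C10 library lacked Ccnd2, the result was nearly fixed in that line. In SVEC, 6 of 42 had both, 28 had Ccnd2 alone and 8 had neither. In C10 their levels did not follow each other, with a Spearman's rho of -0.06 over 45 libraries. In SVEC rho was -0.05 over 42 libraries, but only 6 of these had a count of Ccnd1. With the rest tied at 0, rho cannot show whether the levels follow each other there. Both values are given as a description over libraries that share depth differences.

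**Figure D2:**
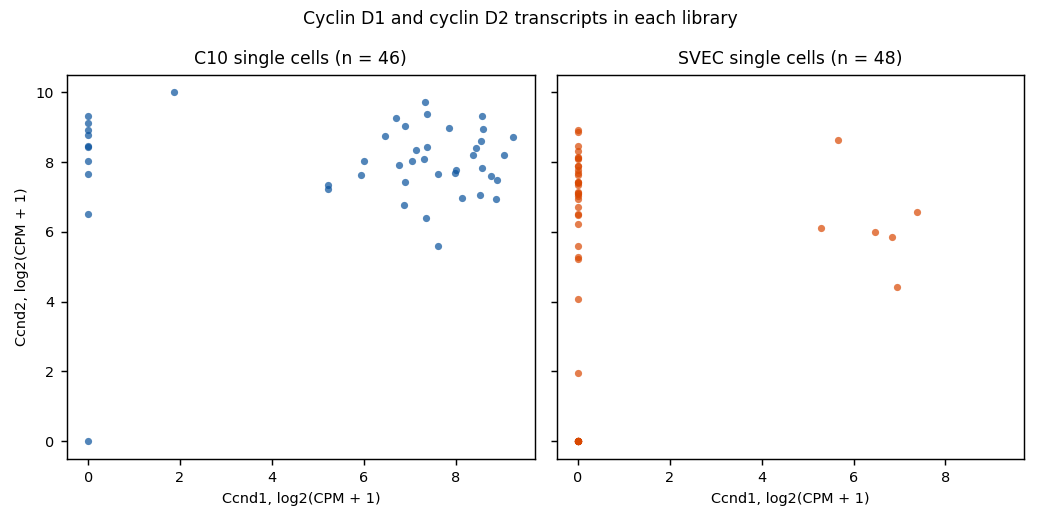
Ccnd2 against Ccnd1, both as log2(CPM + 1), in each C10 single cell (left, n = 46) and SVEC single cell (right, n = 48); each point is a library. In SVEC 42 of 48 libraries lie at 0 on the Ccnd1 axis, against 10 of 46 in C10.

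Their partner Cdk4, the catalytic subunit, was the most widely detected of the 10 genes, with counts in 46 of 46 libraries of C10 and 45 of 48 of SVEC. Its CPM ran from 274 through a median of 845 to 1634 in C10, and from 0 through 1131 to 3335 in SVEC. The SVEC values were wider and enclosed those of C10, with 9 libraries above the highest C10 library. The log2 fold change was -0.05 (SE 0.25, 95% interval -0.54 to 0.43, edgeR adjusted p = 0.923), and its sign changed between settings. An exon of Cdk4 overlaps Tspan31 on the opposite strand in the GENCODE annotation. Whether counting used strand is not given in the sources used here, so reads of the 2 genes may be mixed. Exons of Ccnd1 (LTO1), Ccnd2 (9330179D12Rik and Gm43126) and Cdkn1a (AC167363.2) also overlap genes on the opposite strand, so their counts have the same limit.

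Of the 3 p53 targets Ccng1, Cdkn1a and Mdm2, only Ccng1 was called by edgeR. It had a count in 45 of 46 C10 libraries, with a lowest value of 0, a median of 204 and a highest of 859 CPM. In SVEC it had a count in 13 of 48, with a median of 0 and a highest of 605 CPM. Of the SVEC libraries 5 were above the C10 median and 6 C10 libraries were above the highest SVEC library. The mean was 286 ± 244 CPM (SD, n = 46) in C10 and 49.7 ± 121 CPM (SD, n = 48) in SVEC, a log2 fold change of 2.78 (SE 0.63, edgeR adjusted p = 0.000351) and 2.43 above the median of all genes.

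Cdkn1a was at 0, 24.7 and 692 CPM (lowest, median, highest) in C10, with a count in 31 of 46 libraries. In SVEC it was at 0, 0 and 558 CPM, with a count in 16 of 48. The 2 groups overlapped over nearly their whole range. The log2 fold change was 1.48 (SE 0.75, edgeR adjusted p = 0.169), which did not pass the threshold. The limma test on log2(CPM + 1), which called 34.3% of all genes, did pass it (adjusted p = 0.00844), and over the 9 other settings tried the adjusted p ranged from 0.00844 to 0.474. Leaving out SVEC replicate 47, the SVEC library with the highest Cdkn1a, gave 1.98 with an adjusted p of 0.0518 in edgeR.

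Mdm2 did not pass the test. It was at 0, 28.6 and 441 CPM (lowest, median, highest) in C10, where 29 of 46 libraries had a count, and at 0, 0.177 and 496 CPM in SVEC, where 24 of 48 had one. The log2 fold change was 0.66 (SE 0.72, edgeR adjusted p = 0.610).

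Counted together in libraries of at least 100000 counts, all 3 of these targets were detected in 22 of 45 libraries of C10 and 6 of 42 of SVEC. None was detected in 1 C10 and 10 SVEC libraries. After every library was drawn to 100000 counts, all 3 were detected in 18 C10 and 3 SVEC libraries. As deposited, Cdkn1a was never seen in C10 without Ccng1: 31 libraries had both and 13 had Ccng1 alone. Only 1 C10 library lacked Ccng1, so this was nearly fixed. In SVEC, 7 libraries had both, 6 had Ccng1 alone and 9 had Cdkn1a alone. Their levels had a rho of 0.55 in C10 (n = 45) and 0.34 in SVEC (n = 42), again as a description.

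Trp53 itself, the gene for p53, had similar levels in both lines. In C10 it was at 0, 247 and 770 CPM (lowest, median, highest), and in SVEC at 0, 218 and 1147 CPM. Of the SVEC libraries 23 of 48 lay above the C10 median, so the groups overlapped throughout. The mean was 304 ± 194 CPM (SD, n = 46) in C10 and 296 ± 308 CPM (SD, n = 48) in SVEC, a log2 fold change of 0.31 (SE 0.41, 95% interval -0.50 to 1.11, edgeR adjusted p = 0.690). The limma test on log2(CPM + 1) gave 1.80 (adjusted p = 0.0125), with adjusted p from 0.0125 to 0.992 over these settings.

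Of the inhibitors, Cdkn2a was the gene seen almost solely in SVEC. It had a count in 20 of 48 SVEC libraries, with a median of 0 and a highest of 142 CPM. In C10 it had a count in 1 of 46 libraries, replicate 28, with 61 counts or 21.3 CPM. Of the SVEC libraries 8 lay above that library and all other C10 libraries were at 0. The mean was 16.2 ± 37.4 CPM (SD, n = 48) in SVEC and 0.464 ± 3.14 CPM (SD, n = 46) in C10, a log2 fold change of -4.29 (SE 0.81, edgeR adjusted p = 1.39e-05). Without C10 replicate 28 all C10 libraries were at 0, the fitted value (-7.00, edgeR adjusted p = 2.41e-10) depends on the prior count, and no fold is read from it. DESeq2 gave no adjusted p for it. The C10 input series held it at 0 in all 8 libraries of 1 cell and all 6 of 3 cells, and at 1 count in 1 of 6 libraries of 10 cells.

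Cdkn1b, which encodes the CDK inhibitor p27, had low levels in both lines and did not pass the test. It was at 0, 1.00 and 61.0 CPM in C10 (24 of 46 libraries with a count) and at 0, 0 and 427 CPM in SVEC (16 of 48). The log2 fold change was -0.61 (SE 0.78, edgeR adjusted p = 0.673), and it was 0.11 without SVEC replicate 16, the highest library.

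Rb1, the gene for the Rb protein, had a count in 5 of 46 libraries of C10 and 5 of 48 of SVEC. The highest C10 value was 180 CPM and the highest SVEC value 192 CPM. With no filter on low counts its log2 fold change was -0.45 (edgeR adjusted p = 0.756). At this depth a difference in Rb1 was not detectable. Its exons overlap Lpar6 and Rcbtb2 on the opposite strand, so part of these few counts may belong to either.

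**Figure D3:**
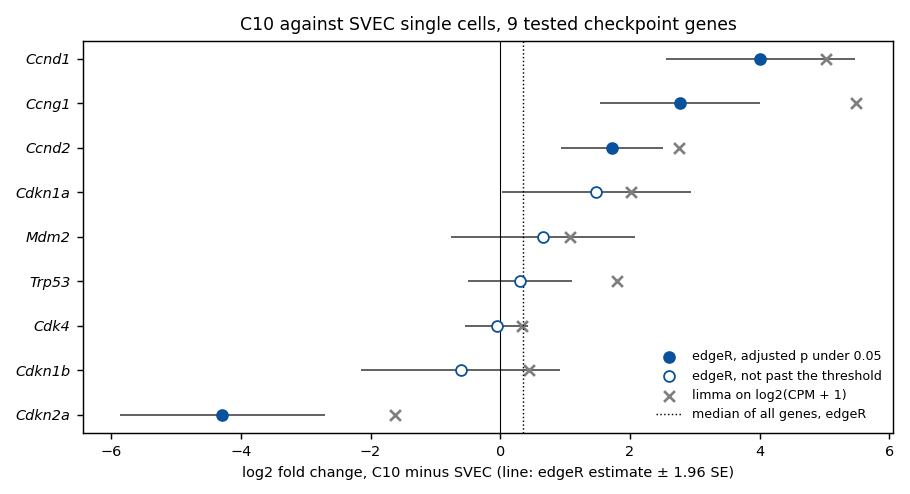
Log2 fold change of C10 minus SVEC (horizontal axis) for the 9 checkpoint genes tested (vertical axis); circles are edgeR estimates with 95% intervals, filled past an adjusted p of 0.05, crosses are limma estimates on log2(CPM + 1), and the dotted line is the median of all genes (0.35). The intervals are approximate, as the SE was derived from the F value of the test. Ccnd1 at 4.01 and Cdkn2a at -4.29 stand at the ends, and the interval of Cdk4 spans 0.

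Detection was then compared at a fixed number of counts, since the SVEC libraries were shallower. Each library was drawn without replacement to 100000 counts, which kept 45 C10 and 42 SVEC libraries. Fisher's exact test (two-sided, adjusted over 11032 genes) called 5 of the 10 genes, against 13.2% of all genes. The 4 seen in more C10 libraries compare with 11.2% of all genes more often detected in C10.

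Ccng1 was detected in 43 of 45 libraries of C10 (95.6%, Wilson 95% interval 85.2 to 98.8) and 12 of 42 of SVEC (28.6%, 17.2 to 43.6; Fisher's exact test, adjusted p = 7.59e-09). Ccnd1 was detected in 75.6% (61.3 to 85.8) and 14.3% (6.72 to 27.8; adjusted p = 1.11e-06, Fisher's exact test). Both thus differed in detection at an equal number of counts as well as in level. Cdkn2a was detected in 0 of 45 C10 libraries, which allows a share of up to 6.67% by a floor of 3 libraries (Wilson 95% upper limit 7.87%), and in 10 of 42 SVEC libraries (23.8%, 13.5 to 38.5; Fisher's exact test, adjusted p = 0.00651). With at least 3 counts required it was found in 5 of 42 SVEC libraries, and the adjusted p was 0.128. Drawn to 20000 counts the adjusted p was 0.0992, so the Cdkn2a call by detection did not hold at either setting.

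Ccnd2 and Trp53 gave the same numbers, 44 of 45 C10 and 33 of 42 SVEC libraries (97.8% and 78.6%; Fisher's exact test, adjusted p = 0.0472 for each). For Trp53 the lower share in SVEC stood beside a mean CPM close to that of C10, so no order of the lines is read from it. Cdkn1a was detected in 60.0% and 31.0% (Fisher's exact test, adjusted p = 0.0659). As deposited, without drawing, it was 67.4% and 33.3% (adjusted p = 0.00804, Fisher's exact test). Mdm2 (57.8% and 42.9%), Cdkn1b (33.3% and 23.8%), Rb1 (4.44% and 9.52%) and Cdk4 (100% and 95.2%) did not pass, with adjusted p-values from 0.443 to 0.691 in Fisher's exact test.

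**Figure D4:**
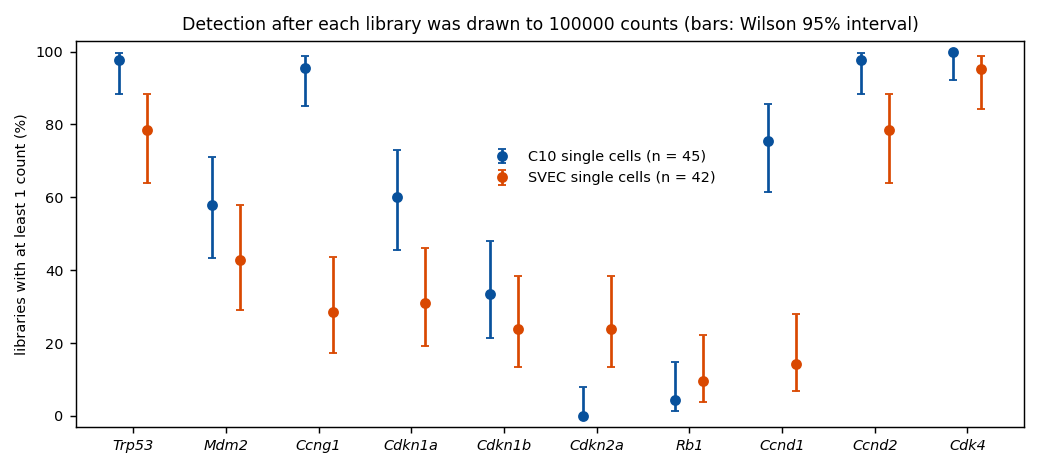
Share of single-cell libraries with at least 1 count of each checkpoint gene (vertical axis, percent) after each library was drawn to 100000 counts, for C10 (n = 45) and SVEC (n = 42); points are shares and bars are Wilson 95% intervals. The intervals of Ccnd1 and Ccng1 do not overlap between the lines, and Cdkn2a is at 0 in C10 and 23.8% in SVEC.

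Levels were compared between genes per kilobase of exon, as mean CPM per kb, because full-length cDNA gives more reads to longer transcripts. In the C10 single cells Cdk4 was first at 267 ± 105 (SD, n = 46), followed by Ccng1 at 81.4 ± 69.4 and Trp53 at 75.2 ± 48.1, which did not differ beyond their spread. Ccnd1 (39.0 ± 35.8) and Ccnd2 (34.8 ± 22.8) came next, then Cdkn1a (20.1) and Mdm2 (16.7), and these neighbours did not differ beyond their spread either. Cdkn1b (2.77), Rb1 (1.20) and Cdkn2a (0.396) closed the order. In the SVEC single cells Cdk4 (352 ± 240, SD, n = 48) and Trp53 (73.1 ± 76.2) led. Ccng1 (14.1), Cdkn2a (13.9), Ccnd2 (13.4), Mdm2 (12.5) and Cdkn1a (10.6) followed within their spread, and Cdkn1b (5.62), Ccnd1 (2.54) and Rb1 (1.45) were last.

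The genes whose levels most resembled those of a checkpoint gene were sought among 2942 genes with a count in at least 50% of the libraries of both lines, by the mean of the 2 within-line rho values over 45 C10 and 42 SVEC libraries. Cdk4 was most like Tspan31 (mean rho 0.52), the overlapping gene named above, then Trp53 (0.42) and Sae1 (0.41). Trp53 was most like Bud23 (0.47), Got1 (0.47) and Asns (0.45). Mdm2 had Arhgap21 (0.40), Plat (0.39) and Ssrp1 (0.37), and Ccnd2 had Ube2l6 (0.39), Fam32a (0.33) and Smarcc1 (0.33). The 99th percentile of the mean rho lay between 0.27 and 0.32 for these 4 genes, and no further reading is made of such sparse counts.

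Other genes of the pathways were taken from lists chosen with earlier results of these data known. Of 30 p53 target genes beyond the checkpoint genes themselves, 20 were tested, and in edgeR 10 were higher in C10 and 1 was higher in SVEC. The median log2 fold change of the 20 was 1.02, against 0.35 for all genes, and the calls over all genes were 14.4% and 4.48%. Sesn2, Ppm1d, Zmat3, Bbc3, Gadd45a and Aen passed the 25% filter only through C10, and Btg2 only through SVEC. Each passed through the line where it was higher, so the counts and the median are given as a description. The count higher in C10 was 6 with library totals, 6 with a stricter filter, a count in 50% of either line's libraries, 6 after drawing to 100000 counts and 5 with the detection rate as a covariate. Gadd45a, a stress-induced regulator of growth arrest, was at 63.7 ± 67.2 CPM (SD, n = 46) in C10 and 14.9 ± 51.4 CPM (SD, n = 48) in SVEC, a log2 fold change of 2.84 (edgeR adjusted p = 0.00259). Phlda3, an inhibitor of Akt signalling, differed by 2.42 on the log2 scale (adjusted p = 0.00508, edgeR). Aen, an apoptosis-linked exonuclease, differed by 2.40 (adjusted p = 0.0122, edgeR). Bax, an effector of mitochondrial apoptosis, differed by 1.18 (adjusted p = 0.00935, edgeR). Aen and Bax were not called with library totals (edgeR adjusted p = 0.0595 and 0.101), and with the detection rate as a covariate Phlda3, Aen and Bax were not called (0.147, 0.186 and 0.196). Sesn2, Ppm1d, Zmat3 and Bbc3, with larger log2 fold changes of 5.91, 4.97, 4.89 and 3.90, had a count in fewer than 50% of the C10 libraries and were named after their values were seen. The 1 gene higher in SVEC was Btg2, an antiproliferative factor, with a mean of 85.1 ± 131 CPM there and 12.3 ± 35.5 CPM in C10 (log2 fold change -2.54, edgeR adjusted p = 0.0261). DESeq2 called no gene of the list higher in SVEC, and Btg2 was named after its values were seen.

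Among 13 regulators and relatives of p53, 10 were tested, none was higher in C10 and 1 was higher in SVEC, with a median of -0.24. That gene was Atr, a damage-sensing kinase (log2 fold change -3.91, edgeR adjusted p = 0.000722), named after its values were seen. The limma test did not call it (adjusted p = 0.0829).

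Of 5 further CDK inhibitors, Cdkn1c and Cdkn2b had no count in any library of any group. The 3 tested, Cdkn2c, Cdkn2d and Cdkn3, gave no call and a median of -0.33. Cdkn2c, which encodes the Cdk4 and Cdk6 inhibitor p18, had a count in 39 of 46 libraries of C10 and 35 of 48 of SVEC. Of 12 pocket protein, E2F and DP genes, the partners of Rb, 7 were tested and none was called, with a median of -0.19.

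Of 12 G1 cyclins, kinases and partners, 10 were tested, 1 was higher in C10 and 1 was higher in SVEC, with a median of 0.12. Cdk6, the other kinase of the D cyclins, was at 83.4 ± 77.0 CPM (SD, n = 46) in C10 and 28.5 ± 54.9 CPM (SD, n = 48) in SVEC (log2 fold change 1.70, edgeR adjusted p = 0.0299). It was not called with library totals or with the detection rate as a covariate. Ccne2, which encodes cyclin E2, had a mean of 52.6 ± 127 CPM in SVEC and 2.03 ± 11.2 CPM in C10 (log2 fold change -4.19, edgeR adjusted p = 0.000331). DESeq2 called no gene of this list higher in SVEC, and Ccne2 was named after its values were seen. Ccne2 passed the filter only through SVEC, with a count in 17 of 48 libraries there and 5 of 46 in C10.

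Of 20 E2F target genes, which act in DNA replication and S phase, 19 were tested, none was higher in C10 and 1 was higher in SVEC. Their median log2 fold change was -0.81, and none of the 19 lay above the 0.35 of all genes. That 1 gene was Mcm4, a subunit of the replicative helicase, at 53.1 ± 105 CPM (SD, n = 46) in C10 and 329 ± 475 CPM (SD, n = 48) in SVEC (log2 fold change -2.33, edgeR adjusted p = 0.00857). The count higher in SVEC was 5 with library totals, 5 after drawing to 100000 counts and 5 with the detection rate as a covariate. The lower median of these S phase genes stood beside the checkpoint differences above, and the part of cell cycle phase in them was not tested.

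**Figure D5:**
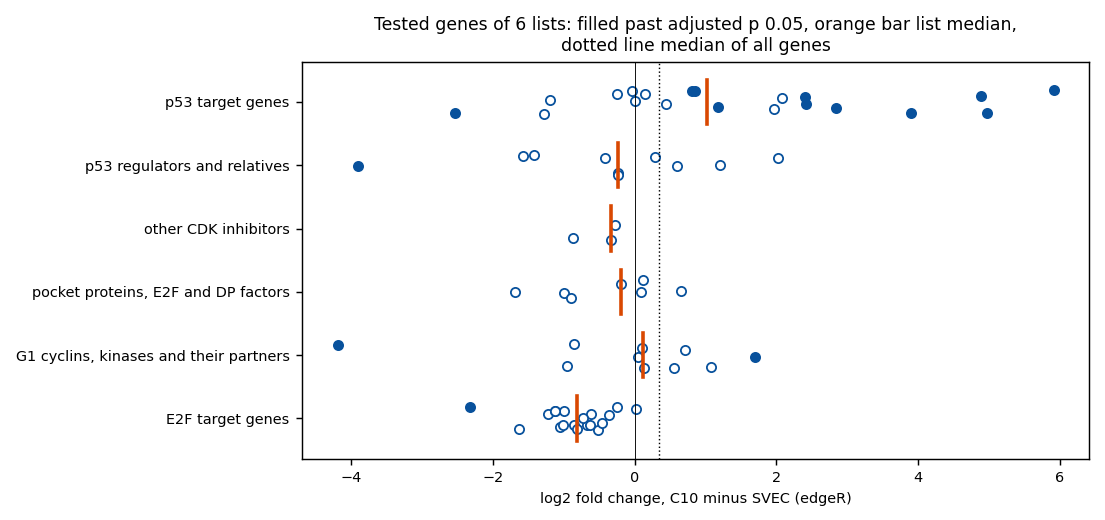
Log2 fold change of C10 minus SVEC in edgeR (horizontal axis) for the tested genes of the 6 lists (vertical axis); each point is a gene, filled past an adjusted p of 0.05, orange bars are list medians and the dotted line is the median of all genes (0.35). The p53 targets have a median of 1.02 with 10 genes called higher in C10, and all 19 E2F targets lie to the left of the dotted line.

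Of the 25 genes with the p53 element in a promoter window, chosen after values were seen, 6 were tested. Ccng1, Rps27l and Sptbn4 were higher in C10 in edgeR and none was higher in SVEC, against 14.4% and 4.48% of all genes. Ccng1 and Rps27l are also counted above. Sptbn4 passed the filter only through C10, with a count in 19 of 46 libraries there and 4 of 48 in SVEC. The counts describe the set and add no separate evidence on the element.

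In the C10 input series the question was how these genes depend on the amount of material, from 1 to 10 cells. Trp53, Ccng1, Ccnd2 and Cdk4 were detected in 7, 7, 6 and 7 of the 8 libraries of 1 cell and in all libraries of 3 and of 10 cells. Mdm2 was detected in 3 of 8 libraries of 1 cell, 3 of 6 of 3 cells and 6 of 6 of 10 cells. Replicate 1 of the 1-cell group, with 430798 counts and 538 genes, had no count of any of the 10 genes. From 3 to 10 cells the coefficient of variation was lower for 7 of the 9 genes with a count in both groups, and higher for Ccnd1 (0.539 and 0.639) and Rb1 (1.15 and 1.78). Cdkn1b was among the 7, with a count in only 1 of 6 libraries of 3 cells, which fixes its value there at the highest possible. The share over all genes was not computed, so nothing is read from the 7 of 9 about these genes. For Cdk4 it was 0.596 in 1 cell, 0.414 in 1 cell without replicate 1, 0.400 in 3 cells and 0.161 in 10 cells. For Trp53 the same values were 0.759, 0.607, 0.570 and 0.216.

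Between 10 cells and 1 cell, edgeR called 1 of the 9 genes tested, against 10.7% of 13645 genes (10.6% higher in 10 cells, 0.0879% higher in 1 cell). That is near the share of all genes, so nothing is read from it about the checkpoint genes as a set. The gene was Cdkn1b, which passed the filter only through the 10-cell group (a count in 5 of 6 libraries, and in 1 of 6 of 3 cells). It was at 0 in all 8 libraries of 1 cell and at 0, 3.43 and 25.6 CPM (lowest, median, highest) in the 6 libraries of 10 cells. The mean of 7.22 CPM was at least 6.44-fold higher than a floor of 3 counts per library (edgeR adjusted p = 0.0230), at least 25.2-fold without 1-cell replicate 1, and at least 3.16-fold without replicate 5 of the 10-cell libraries, its highest. With no filter on low counts its adjusted p was 0.0527, and over the 6 alternatives it ran from 0.00624 to 0.0733. Between 3 cells and 1 cell, none of the 9 genes was called, against 6.35% of all genes (6.07% higher in 3 cells, 0.278% higher in 1 cell). Between 10 and 3 cells, edgeR called none of the 9 and 0 of 13645 genes, with 1346 at an unadjusted p under 0.05, 35 called by limma and 207 by DESeq2.

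The C10 single cells and the C10 libraries of 1 cell were made as separate sets and were not tested against each other. Side by side, the median of Ccnd1 was 149 CPM in the single cells and 0 CPM in the libraries of 1 cell, and that of Ccng1 was 204 and 539 CPM. Cdkn1b had a count in 24 of 46 single cells and in 0 of 8 libraries of 1 cell. The medians of Trp53 were 247 and 186 CPM and those of Ccnd2 were 265 and 257 CPM. The means (± SD) of Cdkn1a were 71.6 ± 125 and 265 ± 503 CPM. For Bax they were 194 ± 69.5 and 695 ± 698 CPM, and for Phlda3 28.8 ± 37.0 and 196 ± 230 CPM. Rrm2b (means 137 and 63.3 CPM) and Rps27l (1246 and 725 CPM) were lower in the libraries of 1 cell. Levels of p53 targets thus varied between the 2 C10 sets too, and the cause was not tested.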

How the data were processed

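The 10 genes and the lists of related genes were chosen with earlier results of these data known. The authors deposited whole-number read counts per gene symbol, 1 file per library. Per the labels' protocols, cDNA was made with a SMART-Seq kit and read as single reads of 150 bases. FastQC, STAR and HTSeq are named in the submitters' processing notes, without versions; build, annotation and strand setting are not given in the sources used here. The 5 closing counters were left out: the median share of reads not aligned was 18.8% to 36.1% per group, and other unassigned reads 7.85% to 10.8%. Wilson 95% intervals were computed over libraries, so they cover the sampling of libraries. No molecular identifiers are described, so floors (3 counts) cover counting error only.

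Libraries were grouped by the labels. CPM are counts scaled to 1000000 counts over genes. The main test was edgeR 4.0.16 (R 4.3.3) quasi-likelihood with TMM factors, adjusted by Benjamini-Hochberg over all genes with a count in at least 25% (single cells) or 50% (input series) of the libraries of a group. Libraries under 1000 counts were left out. limma 3.58.1 on log2(CPM + 1) and DESeq2 1.42.0 were alternatives, beside other scalings, filters, depths and the replicate block. On simulated counts of C10 against SVEC, edgeR made more false calls than its nominal rate and limma made fewer calls, so limma is given beside it. On the deposited counts limma called more genes than edgeR (3195 against 1754 of 9303), so it is not read as the stricter test. Named list genes were at most 4 per list and direction, the largest changes first, with a count in at least 50% of the higher line's libraries. Genes outside this rule are said to be named after their values were seen. Exon lengths came from GENCODE (GRCm38) in place of the planned RefSeq annotation, and promoter windows from RefSeq.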

Additional observations from a re-analysis of the deposited data

Results flagged for a closer look

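In the input series, 27 groups of values were examined for a library far from the others by Dixon's ratio, and 8 had one. Chance gives about 1 in 20 only for normally distributed values. These CPM are skewed and hold many zeros, so the 8 are not set against that rate and are given as a description. In 3 of the 8, a single library alone had a count, which fixes the ratio. In the libraries of 1 cell, replicate 10 stood apart for 4 genes. It held Mdm2 at 1310 CPM, Ccng1 at 4075 CPM, Cdkn1a at 1472 CPM and Rb1 at 31.8 CPM. The other 7 libraries reached at most 491 CPM for Mdm2, 1464 CPM for Ccng1 and 349 CPM for Cdkn1a, and were at 0 for Rb1. Of the libraries of 3 cells, replicate 1 was the only 1 with Cdkn1b, at 0.726 CPM. Of the libraries of 10 cells, replicate 5 held Cdkn1b at 25.6 CPM against at most 8.86 CPM, replicate 6 held Rb1 at 24.4 CPM against at most 4.53 CPM, and replicate 10 held the only count of Cdkn2a, at 0.105 CPM.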

How the results depend on the processing

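Ccnd1, Ccng1 and Ccnd2 were called in each of the 9 other settings of C10 against SVEC, and Cdkn2a in the 6 that gave it a p-value. Leaving out each of the 94 libraries in turn, an alternative chosen after seeing the data, called 4 of the 9 genes tested in every fit (lowest 4, highest 4). It called 10 to 11 p53 targets higher in C10. Replicate numbers did not pair the libraries (mean correlation of deviations 0.0033 over 46 shared numbers). With the replicate block, 3108 of 9303 genes were called for C10 against SVEC. Of the 9 checkpoint genes tested it called 5, with Cdkn1a as an added gene (3.30, edgeR adjusted p = 0.0154). The block called 0 of 13645 genes for 10 cells or 3 cells against 1 cell. By detection it called 3 of the 10 genes, against 1013 of 10807 genes (Ccnd2, 0.130, and Trp53, 0.0669, were lost in the exact McNemar test). It also called 3 p53 regulators higher in C10 and 0 in SVEC, and 2 E2F targets higher in SVEC. Over all genes, C10 against SVEC gave 1754 calls of 9303 tested, 3195 with limma and 5437 of 18001 without filter. Those higher in C10 and in SVEC were 1337 and 417 in the main fit. They were 920 and 670 with library totals, 1309 and 210 with DESeq2, and 2867 and 328 with limma. The detection rate as a covariate gave 760 and 638, and the block 2809 and 299. The 50% filter gave 998 and 212 of 5888 genes, drawing 782 and 485 of 7219, and no filter 3322 and 2115. Detection gave 1461, 935 at 20000 counts and 5039 undrawn. For 10 cells against 1 cell, 1456 fell to 48 without filter and 336 without 1-cell replicate 1. For 3 cells against 1 cell, 866 fell to 121 with limma, 65 without filter and 32 without that replicate. For 10 cells against 3 cells, DESeq2 gave 207 and limma 35. For 10 cells against 1 cell, DESeq2 and limma each called 2 of the 9 genes tested, against 1032 and 1410 of 13645 genes. The fit without filter called 0 of 10, against 48 of 19431 genes. p53 targets higher in C10 fell from 10 to 6 with library totals, the 50% filter or drawing, and to 5 with the detection rate as a covariate. Targets higher in SVEC were 0 with DESeq2 or the 50% filter. p53 regulators higher in C10 were 1 with DESeq2, no filter or the covariate and 3 with limma, and those higher in SVEC 0 with limma or the 50% filter and 2 without filter. Pocket protein and E2F genes higher in SVEC were 1 with library totals or no filter. G1 cyclins and kinases higher in C10 were 0 with library totals or the covariate and 2 with limma, and those higher in SVEC 0 with DESeq2 or the 50% filter and 2 with the covariate. E2F targets higher in SVEC were 5 with library totals, drawing or the covariate, 3 with limma and 2 without filter or with the 50% filter. Signs turned for genes that were not called: Trp53 (-0.22) and Mdm2 (-0.17) with the covariate, Cdkn1b with limma (0.45) and the replicate block (1.64), and Cdk4 with DESeq2 (0.068), limma (0.33), no filter (0.0050), libraries of at least 100000 counts (0.084) and the block (0.22). The cause was not tested, apart from fewer genes entering the stricter filters. Rb1 was below the filter on detection in the single cells.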

Other observations

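Replicate 10 of the libraries of 1 cell was the highest of the 8 for 16 of the 27 p53 target genes with a count there (59.3%). It was the highest for 8 of 11 pocket protein, E2F and DP genes, for 2 of 11 G1 cyclins and kinases, and for 4588 of all 15151 genes (30.3%). Bbc3, a pro-apoptotic p53 target, was at 129 CPM there against at most 123 CPM in the others, Gadd45a was at 449 against at most 393 CPM, and Bax, at 312 CPM, was below the 564 CPM median of the others. That library also had the most genes detected, 11764 against 538 to 9368, and the part of this in its p53 target levels was not tested.

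In SVEC, replicate 47 held both the highest Mdm2 (496 CPM, 104 counts) and the highest Cdkn1a (558 CPM, 117 counts), from 209784 counts in all. Cdkn1a and Cdkn2a were found together in 5 of 42 SVEC libraries, Cdkn1a alone in 11, Cdkn2a alone in 13 and neither in 13. The counts of Cdkn2a do not tell p16Ink4a, an inhibitor of G1 kinases, from p19Arf.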
